A study of Mus musculus with 6 samples.

Results

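Dual specificity phosphatases of the MAP kinase phosphatase family were examined in regulatory T cells (Tregs). The 8 genes Dusp1, Dusp2, Dusp4, Dusp5, Dusp6, Dusp7, Dusp10 and Dusp16 were taken by symbol, through every array probe set that the platform annotation gives to that symbol alone. This yielded 12 of the 45037 probe sets tested and 8 of 18193 genes. Dusp7 had 3 probe sets, Dusp10 and Dusp16 had 2 each, and the other genes had 1. All mice were female NOD mice, a strain that develops autoimmune diabetes, and carried the BDC2.5 T cell receptor transgene, which recognises an islet antigen, and the Foxp3GFP reporter. The 3 treated mice were RAG1o/o, so they could not rearrange antigen receptor genes of their own, and received the anti-CD3 antibody KT3 intravenously, 37.5 µg a day for 5 days, the first dose at 17 days of age. They were 29, 29 and 28 days old at sorting, which the labels give as 12, 12 and 11 days after treatment. By these ages, the days count from the first dose and not from the last. The 3 untreated mice were RAG1+/o and 29, 28 and 28 days old. CD4+ GFP+ cells negative for B220, CD8a and CD11b/c were sorted from the spleen of 1 mouse per array. Antibody and RAG1 genotype differed together and cannot be told apart, so the groups are called treated and untreated only as a short form.

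MAP kinases (ERK, p38 and JNK) carry signals from the T cell receptor and from cytokine and stress receptors, and are switched on when a kinase phosphorylates a threonine and a tyrosine in their activation loop. MAP kinase phosphatases remove both phosphates, and many are themselves transcribed in response to the pathway they end, which makes them part of a negative feedback. Dusp1, Dusp2, Dusp4 and Dusp5 encode inducible nuclear enzymes, Dusp6 and Dusp7 encode cytoplasmic enzymes that prefer ERK, and Dusp10 and Dusp16 encode enzymes that prefer p38 and JNK. In T cells they are known as brakes on receptor signalling and on cytokine production.

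The DNA just upstream of 4 members is shown so that the letters near the start of an inducible and of a variable member can be read beside the values; what these windows do was not measured. Dusp1 and Dusp5 are inducible members, and Dusp6 and Dusp16 were the pair of members with the most similar array values described further on. Each line gives the 250 bases before the RefSeq start of transcription (GRCm38.p6), 5′ to 3′ on the strand of the gene, with motif matches in capitals. The windows lie at chr17:26508473-26508722, minus strand, at chr19:53528895-53529144, plus strand, at chr10:99262981-99263230, plus strand, and at chr6:134792629-134792878, minus strand.
Dusp1: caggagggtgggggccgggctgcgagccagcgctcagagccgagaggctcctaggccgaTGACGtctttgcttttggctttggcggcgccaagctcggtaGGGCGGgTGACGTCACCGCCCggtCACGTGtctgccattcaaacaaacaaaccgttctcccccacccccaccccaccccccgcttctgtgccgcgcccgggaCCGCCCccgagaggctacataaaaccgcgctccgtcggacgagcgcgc
Dusp5: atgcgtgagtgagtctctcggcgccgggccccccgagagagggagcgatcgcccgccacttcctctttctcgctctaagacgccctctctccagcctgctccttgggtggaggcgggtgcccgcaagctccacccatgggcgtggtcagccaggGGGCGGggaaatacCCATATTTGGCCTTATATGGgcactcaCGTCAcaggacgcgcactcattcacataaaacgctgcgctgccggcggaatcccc
Dusp6: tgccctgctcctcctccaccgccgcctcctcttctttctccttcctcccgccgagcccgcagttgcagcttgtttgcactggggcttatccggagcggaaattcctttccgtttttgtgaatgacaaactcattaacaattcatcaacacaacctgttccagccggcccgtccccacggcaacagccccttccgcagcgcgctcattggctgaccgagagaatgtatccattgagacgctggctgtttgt
Dusp16: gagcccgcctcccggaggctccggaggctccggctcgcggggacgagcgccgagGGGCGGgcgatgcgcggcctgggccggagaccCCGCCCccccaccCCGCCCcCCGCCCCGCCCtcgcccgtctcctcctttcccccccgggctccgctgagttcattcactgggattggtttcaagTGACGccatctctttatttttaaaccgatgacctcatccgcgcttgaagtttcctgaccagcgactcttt

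Such a window was listed for 7 of the 8 members, with no entry for Dusp4. The Dusp16 window belongs to a start 14435 bases inside the outermost annotated start of the gene, so it lies within the gene model. The letters searched on both strands were the cAMP response element TGACGTCA, its core TGACG, which the full element contains, the AP-1 site TGANTCA, the ETS core CCGGAA, the E-box CACGTG, the GC box GGGCGG, the TATA box TATAAA and the CArG box bound by serum response factor. The full cAMP response element stood in Dusp1 alone among the 7 windows, starting 143 bases before the transcription start, where 1.55% of all 32851 windows hold one. Dusp5 held 2 adjoining CArG boxes, starting 82 and 72 bases before its start, and 1.47% of all windows hold at least 1. The core stood in Dusp1, Dusp5 and Dusp16 (17.8% of all windows), E-boxes in Dusp1 and Dusp2 (6.02%), and GC boxes in Dusp1, Dusp2, Dusp5, Dusp10 and Dusp16 (32.7%), with 5 matches in Dusp16. None of the 7 windows held the AP-1 site (6.75% of all windows), the ETS core (12.0%) or the TATA letters (12.4%), and none of the searched letters occurred in the Dusp6 and Dusp7 windows. The 7 windows held 56.4% to 77.2% GC, against a median of 52.4% over all windows. The shares of all windows were not matched for GC. A match here describes letters and not a bound site.

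The arrays held signal of other cells beside the Treg genes, and single arrays stood apart. The mean of 6 Treg markers ran from 11.43 to 11.85 (log2 RMA intensity) on treated and from 11.10 to 11.70 on untreated arrays. Foxp3, the Treg lineage factor, ran from 11.43 to 12.44 on treated and from 9.95 to 11.06 on untreated arrays, while the groups overlapped for the other 5 Treg markers. The mean of 7 T cell markers ran from 10.40 to 11.63 over all 6 arrays. Single T cell markers went both ways. All treated values lay above all untreated ones for Cd247 (difference +1.05) and Cd3e (+0.31), and below them for Trat1 (−1.48). The groups overlapped for Cd3d, Cd3g, Cd4 and Cd5. Means of 14 myeloid markers were 10.22, 8.98 and 10.01 on treated replicates 1, 2 and 3, against 9.68, 9.70 and 6.74 on untreated arrays. Means of 11 B cell markers were 6.53, 6.42 and 6.34 on treated and 9.55, 9.46 and 6.90 on untreated replicates. Untreated replicate 3 was the lowest array in the myeloid list and lay near the treated arrays in the B cell list, where the other untreated arrays were high. Both CD8 markers stayed between 6.04 and 7.16. The log2 ratio of the 3′ to the 5′ Gapdh control was 2.02 on untreated replicate 3 and 3.23 to 4.10 elsewhere, and that of the beta-actin control was 3.62 on treated replicate 3 and 0.92 to 1.95 elsewhere. Rag1 itself had 1 probe set, at 6.68, 5.23 and 4.93 on treated and 7.61, 7.30 and 5.47 on untreated arrays. Whether that probe set lies inside the disrupted stretch is unknown here, so it does not check the genotype. In sorted bulk samples fewer cells of a type and less RNA per cell cannot be told apart.

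The comparison asked how phosphatase transcript levels differ between the Tregs of anti-CD3 treated RAG1o/o mice and those of untreated RAG1+/o mice. No member was called different between the groups, which does not show that the levels were equal. Of 12 probe sets 0 passed limma at an adjusted p of 0.05, as did 0 of all 45037 (0%). At an unadjusted p under 0.05 there were 0 of 12 members against 4.52% of all probe sets. Differences ran from −0.24 for Dusp1 to +0.41 for a Dusp10 probe set, so the largest was 1.33-fold, and 8 were above 0 and 4 below, where 58% and 42% of all probe sets were. The median difference was +0.20, beside +0.05 over all probe sets. The groups did not overlap in 1 of 12 member probe sets, with the treated values above, where 10.2% of all did not overlap and 5.14% had the treated values above. Without untreated replicate 3 the test called 59 of all probe sets and 0 of the members. With 3 against 3 arrays an exact two-sided permutation test cannot go below 0.1.

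**Figure D1:**
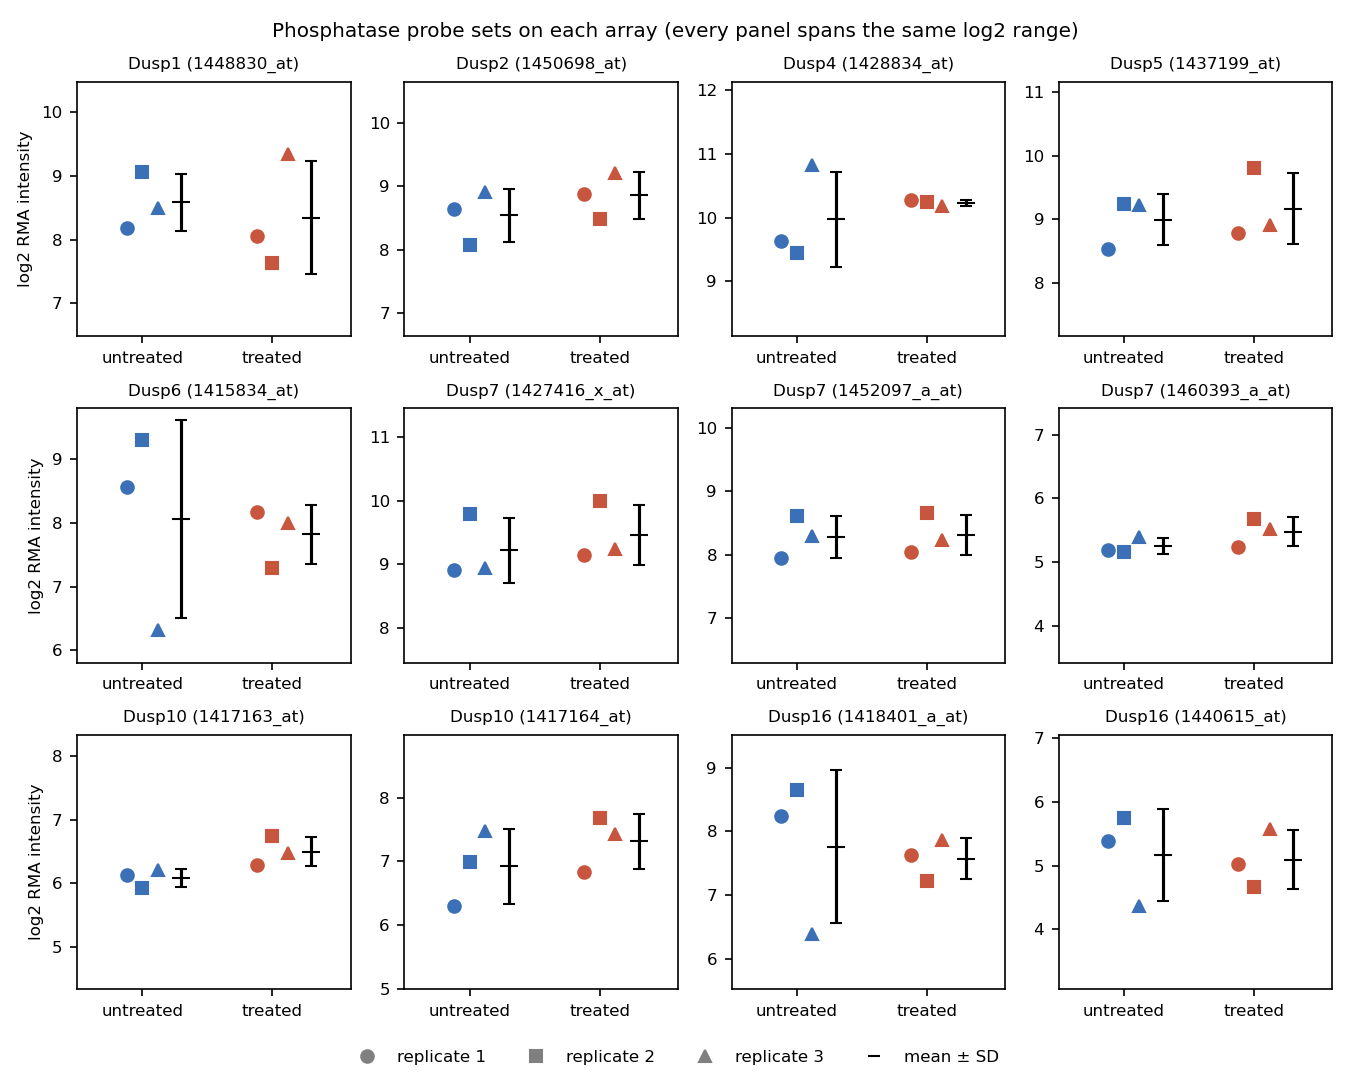
Log2 RMA intensity (y axis) of the 12 phosphatase probe sets on each array, by group (x axis); point shape gives the replicate, black bars the mean ± SD (n = 3), and every panel spans the same range. Groups overlap in all panels but the one of Dusp10 1417163_at, and the spread is widest for untreated Dusp6 (6.31 to 9.30).

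Among the inducible nuclear enzymes, Dusp1, which is induced by stress and mitogens, measured 8.05, 7.63 and 9.34 in treated and 8.18, 9.07 and 8.50 in untreated replicates 1, 2 and 3. The highest and the lowest array were both treated, and the groups overlapped, at 8.34 ± 0.89 against 8.59 ± 0.45 (SD, n = 3 each). The difference was −0.24 (95% interval −1.31 to 0.82, limma adjusted p = 0.965). It was −0.74 without treated replicate 3 (95% interval −1.48 to −0.0066, adjusted p = 0.851), +0.11 without treated replicate 2 and +0.10 with age as a covariate.

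Dusp2, first described as a phosphatase of activated T cells, measured 8.87, 8.48 and 9.21 in treated and 8.64, 8.08 and 8.91 in untreated replicates. In each group replicate 2 was the lowest and replicate 3 the highest, and the ranges overlapped. The means of 8.85 ± 0.36 and 8.54 ± 0.42 differed by +0.31 (95% interval −0.34 to 0.97, limma adjusted p = 0.961).

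Dusp4, which acts on ERK and JNK in the nucleus, measured 10.27, 10.25 and 10.18 in treated and 9.64, 9.45 and 10.83 in untreated replicates. The treated mice lay within 0.09 of each other, with an SD of 0.05, while the untreated SD was 0.75, with untreated replicate 3 above every other array. The T cell list was likewise lowest on untreated replicate 2 (10.40) and highest on untreated replicate 3 (11.63), where the myeloid list was lowest (6.74). On treated arrays the T cell list was 10.98, 11.07 and 11.52, rising where Dusp4 did not. The part of these lists in the Dusp4 values was not tested. The Dusp4 difference was +0.26 (95% interval −0.57 to 1.10, limma adjusted p = 0.961). Without untreated replicate 3 it was +0.69 (95% interval 0.23 to 1.15), with an adjusted p of 0.757. That refit kept untreated replicates 1 and 2, which were high in the B cell list (9.55 and 9.46, against 6.90 on untreated replicate 3). Without untreated replicate 1 or 2 the Dusp4 difference was smaller, down to +0.0012.

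Dusp5, a nuclear phosphatase selective for ERK, measured 8.78, 9.81 and 8.91 in treated and 8.53, 9.23 and 9.22 in untreated replicates. Treated replicate 2 was the highest array, and the other treated arrays lay between the lowest and the highest untreated ones. The difference was +0.17 (95% interval −0.60 to 0.94, limma adjusted p = 0.966), and it was −0.15 without treated replicate 2 and −0.06 without untreated replicate 1.

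The cytoplasmic member Dusp6, a feedback inhibitor of ERK, varied most of all members. Treated values were 8.17, 7.29 and 8.0 for replicates 1, 2 and 3, against untreated values of 8.56, 9.30 and 6.31. Untreated mice held both the highest and the lowest value, a range of 2.99, and the treated values lay between them. The SD over the 6 arrays stood at the 98.4th percentile of all probe sets. The difference was −0.24 with a wide 95% interval of −1.92 to 1.45 (limma adjusted p = 0.977).

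Leaving out untreated replicate 3 gave Dusp6 a difference of −1.11 (95% interval −1.95 to −0.27, adjusted p = 0.838), while leaving out untreated replicate 2 gave +0.38. The array file numbers form a lower run, with replicates 1 and 2 of both groups, and an upper run, with replicate 3 of both. Within the lower run Dusp6 differed by −1.20, and in the upper run, with 1 array a group, by +1.68. Untreated replicate 3 was also the lowest array in the myeloid list, in the list of 6 NK markers (6.60 against 7.82 to 8.45) and in that of 7 erythroid and platelet markers (6.39 against 7.52 to 8.29), and treated replicate 2 was the lowest treated array for both Dusp6 and the myeloid list. The myeloid list was higher on treated replicates 1 and 3 than on untreated replicates 1 and 2, and Dusp6 was lower. The B cell list, like Dusp6, was higher on untreated replicates 1 and 2 (9.55 and 9.46) than on every treated array (6.34 to 6.53). On untreated replicate 3 the B cell list was above, and Dusp6 below, every treated array. The erythroid and platelet list, like Dusp6, was highest on untreated replicate 2, and the NK list was highest on treated replicate 1. The part of these markers in the Dusp6 values was not tested.

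Dusp7, the cytoplasmic relative of Dusp6, was read by 3 probe sets. The probe set 1427416_x_at measured 9.14, 10.0 and 9.25 in treated and 8.91, 9.80 and 8.94 in untreated replicates. In both groups replicate 2 was the highest, and the groups overlapped. The difference was +0.25 (95% interval −0.53 to 1.02, limma adjusted p = 0.961), and −0.024 without treated replicate 2. The probe set 1452097_a_at differed by +0.03 (95% interval −0.54 to 0.60), with replicate 2 again highest in both groups at 8.66 and 8.61. The third, 1460393_a_at, was dim, with a mean at the 27.8th percentile of all probe sets, and differed by +0.23 (95% interval −0.19 to 0.65). All 3 differences were above 0, but that of 1452097_a_at turned to −0.031 with array weights, and none passed the test.

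Of the enzymes that prefer p38 and JNK, Dusp10 was read by 2 probe sets, and the groups did not overlap in 1 of them. This was 1 of 12 member probe sets, where 10.2% of all probe sets did not overlap. The probe set, 1417163_at, had a mean at the 46.5th percentile of all. It measured 6.28, 6.74 and 6.47 in treated and 6.12, 5.93 and 6.20 in untreated replicates. All treated values lay above all untreated ones, with a gap of 0.08 between the nearest. The difference was +0.41 (95% interval −0.02 to 0.84, unadjusted p = 0.0567, limma adjusted p = 0.961), which is 1.33-fold, and it ranked 2309 of 45037 by p. It stayed between +0.29 and +0.52 when each array was left out and was +0.26 with array weights, which counted treated replicate 2, its highest array, least. Without treated replicate 1 the 95% interval was 0.03 to 1.01 (limma adjusted p = 0.769). With eBayes trend and robust it was 0.0044 to 0.82 (limma adjusted p = 0.956). In the other refits of this probe set the interval included 0. The brighter probe set 1417164_at measured 6.83, 7.68 and 7.43 in treated and 6.30, 6.98 and 7.48 in untreated replicates. Here untreated replicates 2 and 3 lay within the treated range, and the difference was +0.39 (95% interval −0.43 to 1.21, limma adjusted p = 0.961). Without untreated replicate 1 it was +0.08 and without untreated replicate 3 +0.67.

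Dusp16, a phosphatase of JNK and p38, had nearly the array order of Dusp6. Its probe set 1418401_a_at measured 7.62, 7.22 and 7.87 in treated and 8.25, 8.65 and 6.39 in untreated replicates. As with Dusp6, untreated replicates 1 and 2 were above and untreated replicate 3 below all treated arrays. The difference was −0.19 (95% interval −1.51 to 1.12, limma adjusted p = 0.977), −0.88 without untreated replicate 3 (95% interval −1.52 to −0.24, adjusted p = 0.826) and +0.25 without untreated replicate 2. The dimmer probe set 1440615_at measured 5.02, 4.67 and 5.58 in treated and 5.39, 5.75 and 4.36 in untreated replicates, with untreated replicate 3 again lowest. It differed by −0.08 (95% interval −1.01 to 0.85). Within the lower run of array files the Dusp16 probe sets differed by −1.03 and −0.73, and in the upper run by +1.48 and +1.22. The myeloid, NK and erythroid lists were also lowest on untreated replicate 3. The myeloid list was higher on treated replicates 1 and 3 than on untreated replicates 1 and 2, where 1418401_a_at was lower. The B cell list, like 1418401_a_at, was higher on untreated replicates 1 and 2 than on every treated array. On untreated replicate 3 the B cell list was above every treated array. The erythroid list was highest on untreated replicate 2, as Dusp16 was, and the NK list on treated replicate 1. The part of these lists in the Dusp16 values was not tested.

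**Figure D2:**
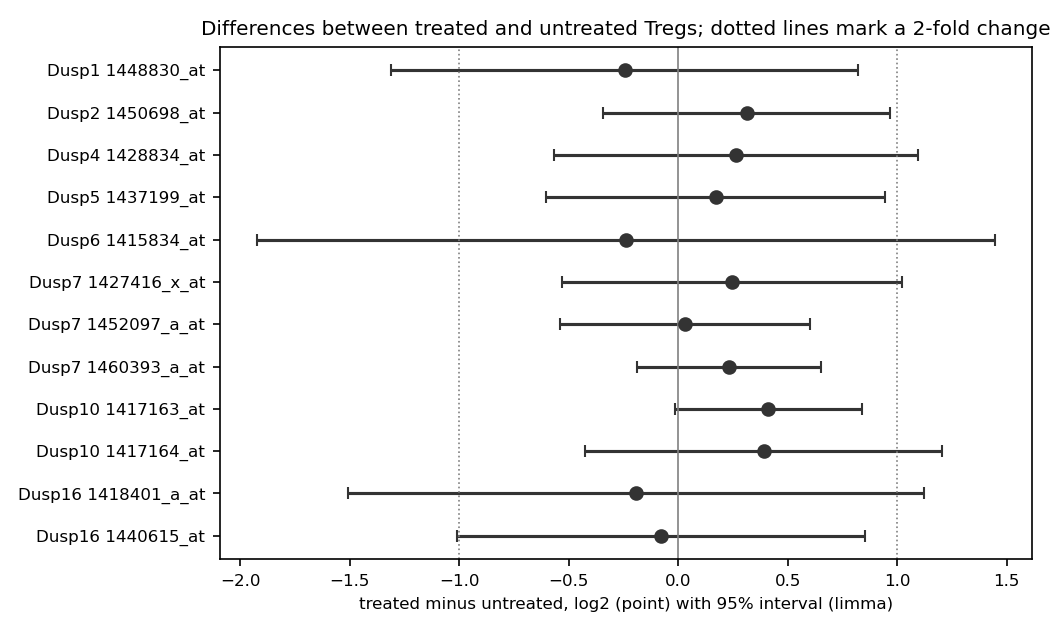
Treated minus untreated difference (x axis, log2) of each phosphatase probe set (y axis) with its 95% interval from limma; the dotted lines mark a 2-fold change either way. Every interval includes 0, and those of Dusp6 (−1.92 to 1.45) and Dusp16 1418401_a_at (−1.51 to 1.12) are the widest.

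The precision differed between members. The 95% interval lay inside a 2-fold change in either direction for 5 of 12 member probe sets, those of Dusp2, Dusp5, 2 of Dusp7 and 1 of Dusp10, against 76.8% of all probe sets. For Dusp1, Dusp4, Dusp6 and Dusp16 the interval of each probe set included a 2-fold change in at least 1 direction, so these arrays do not settle whether a change of that size is present. The median size of the difference was 0.24 among members and 0.17 over all probe sets.

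Members also differed in which array they were high on. Treated replicate 2 was the highest array for 6 of 12 member probe sets, those of Dusp5, Dusp7 and Dusp10, and for 37.4% of all probe sets. It also carried the lowest array weight, 0.242 against 0.731 to 2.58 for the others. Untreated replicate 2 was the highest for Dusp6 and both Dusp16 probe sets, as for 15.6% of all. Untreated replicate 3 was the lowest for these same 3 probe sets (12.0% of all) and the highest for Dusp4 (13.5% of all).

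Likeness was measured between the brightest probe sets of the members, as the root mean square difference of values centred on their own mean over the 6 arrays. Dusp6 and Dusp16 were the nearest pair at 0.26, Dusp5 and Dusp7 were each other's nearest member, also at 0.26, and Dusp10 was nearest to Dusp5 at 0.28. Dusp2 and Dusp4 were 0.35 apart, and Dusp1 was the most isolated, 0.64 from Dusp2. Among all other genes the probe sets nearest to Dusp6 were those of St3gal6, a sialyltransferase gene, at 0.11, Fgd4, a gene for an exchange factor of the GTPase Cdc42, at 0.11, and Tm6sf1 at 0.17. St3gal6 measured 8.14, 7.15 and 8.05 in treated and 8.70, 9.14 and 6.38 in untreated replicates, so it shared the low untreated replicate 3. These likenesses are descriptions of 6 arrays that share the groups and the marker differences above.

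**Figure D3:**
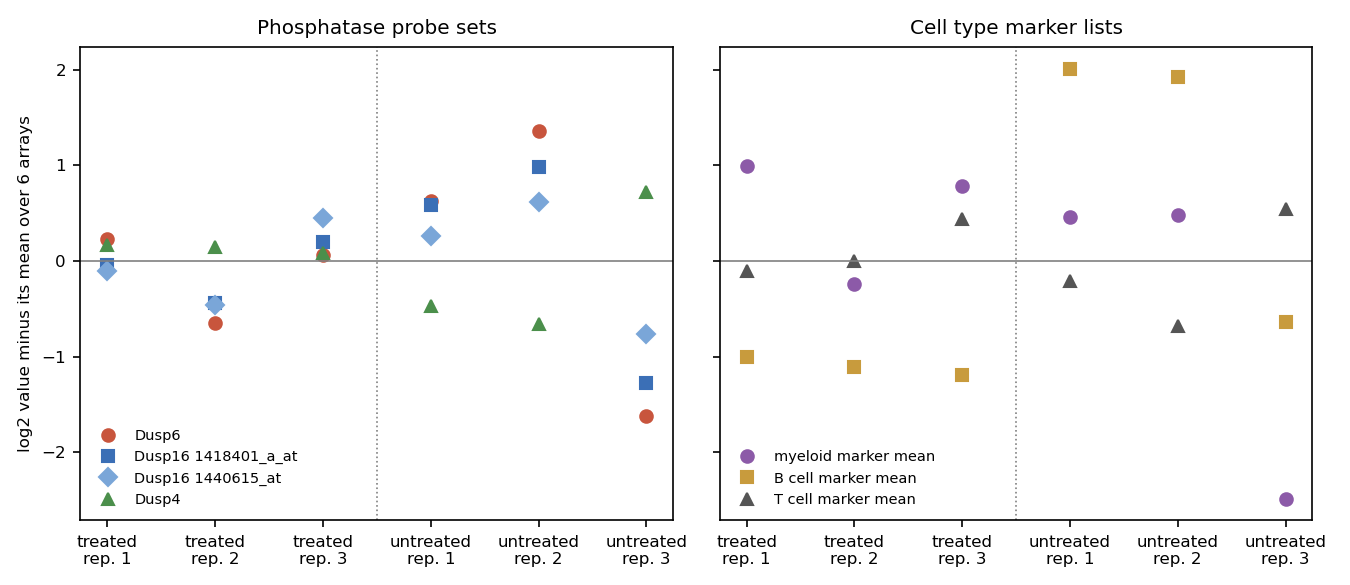
Log2 values minus their own mean over the 6 arrays (y axis) on each array (x axis), for Dusp6, Dusp16 and Dusp4 on the left and for the means of 3 marker lists on the right. On untreated replicate 3 Dusp6 was −1.63, Dusp16 1418401_a_at −1.28 and Dusp4 +0.73. The myeloid list was −2.48, the B cell list −0.64 and the T cell list +0.55 on that array.

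The other genes of the pathway gave the setting of these values, from lists chosen by function. The remaining MAP kinase phosphatases, Dusp8 and Dusp9, had 6 probe sets, of which 0 reached an unadjusted p under 0.05. Dusp8, a phosphatase of JNK and p38, differed by +0.41 in a dim probe set, by +0.16 in another and by −0.11 in its brightest. The means of the dim and the brightest lay at the 29.1th and 74.5th percentiles of all probe sets. The ERK phosphatase gene Dusp9 differed by +0.04 to +0.07. Among 28 probe sets of 15 atypical dual specificity phosphatase genes, 0 passed over all probe sets. At an unadjusted p under 0.05, 1 was lower, where 3.00% of all probe sets were lower. This was Dusp19, linked to JNK signalling, at 7.30, 7.23 and 6.92 in treated and 8.40, 7.88 and 8.32 in untreated replicates. The groups did not overlap and the difference was −1.05 (limma adjusted p = 0.882), but its other probe sets gave +0.19 and −0.29. A dim Dusp18 probe set differed by +0.35 and the brighter one by +0.02. A Dusp12 probe set differed by −0.29 and its others by +0.20 and +0.11.

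Phosphatases of other families that act on MAP kinases had 19 probe sets of 6 of the 7 listed genes, with a median of −0.23. None passed, and 1 was lower at an unadjusted p under 0.05, where 3.00% of all probe sets were lower. That probe set of Ppm1a, a PP2C phosphatase of p38 and JNK kinases, measured 8.04, 7.05 and 7.22 in treated and 8.74, 8.22 and 9.28 in untreated replicates, without overlap. It differed by −1.31 (adjusted p = 0.961), while the brightest of the 8 Ppm1a probe sets differed by −0.23. The next by p was another Ppm1a probe set at −0.31, followed by Ppm1d at +0.29.

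The ERK cascade, from RAS exchange factors to ERK, had 39 probe sets of 12 of the 18 listed genes, with a median of +0.02. None passed, and at an unadjusted p under 0.05 there were 3 lower and 0 higher probe sets, beside 3.00% lower and 1.53% higher of all. Map2k1, which encodes the ERK kinase MEK1, had 1 probe set at 10.32, 10.34 and 10.16 in treated and 10.61, 11.18 and 10.80 in untreated replicates, all treated values below all untreated ones (difference −0.59, 95% interval −1.05 to −0.13, limma adjusted p = 0.961). A probe set of Rasgrp1, the RAS activator downstream of the T cell receptor, differed by −0.99, but its brightest probe set by +0.08. A probe set of the RAF kinase gene Araf differed by −0.69, and its 4 others were above 0.

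The p38 and JNK cascades had 47 probe sets of 19 of the 20 listed genes, with a median of +0.04, and 0 passed. At an unadjusted p under 0.05, where 1.53% of all were higher, there was 1 higher probe set, that of Mapk13, which encodes p38 delta. It measured 7.24, 6.81 and 7.42 in treated and 6.46, 5.92 and 5.79 in untreated replicates, without overlap, and differed by +1.10 (95% interval 0.52 to 1.69, adjusted p = 0.961). Both probe sets of Mapkapk3, a kinase activated by p38, had positive differences, +0.45 and +0.64.

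Other inhibitors between RAS and ERK had 32 probe sets of 12 genes, with a median of +0.07. None passed, and 2 were higher at an unadjusted p under 0.05, where 1.53% of all probe sets were higher. These were a dim probe set of Spry2 (+0.48) and a probe set of Spred2 (+0.48), both genes of feedback inhibitors. The other Spry2 probe set differed by −0.05, and the other 4 of Spred2 by −0.07 to +0.01. Rasa2, a RAS GTPase activator, differed by −0.52 in 1 probe set and +0.23 in the other.

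Transcription factor and early response genes downstream of ERK had 38 probe sets of 21 genes, with a median of +0.08, and 0 passed. Higher probe sets at an unadjusted p under 0.05 numbered 2, where 1.53% of all probe sets were higher. They were Nr4a1, an early receptor response gene, at +0.81 (limma adjusted p = 0.882), and the small Maf gene Maff at +0.51. A Jun probe set differed by −0.61, short of that mark. Egr1, a classical ERK target, differed by +0.48 and Fos by −0.26; both were named outside the rule, after their values were seen.

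**Figure D4:**
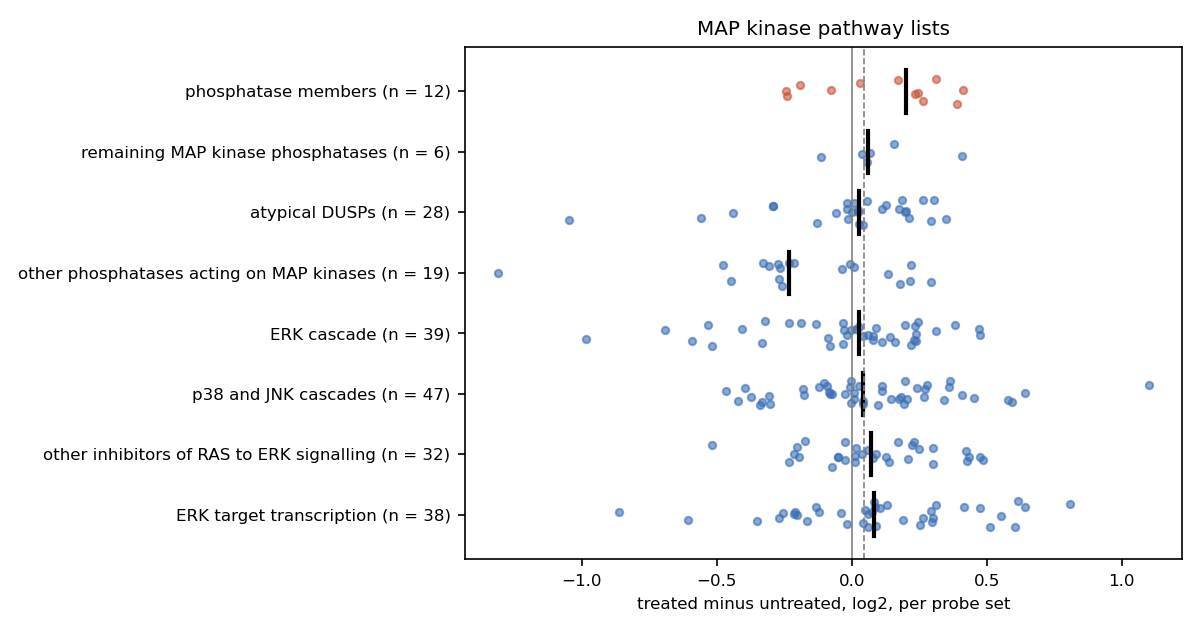
Treated minus untreated difference (x axis, log2) of each probe set in the phosphatase set and 7 pathway lists (y axis, with the number of probe sets); black bars are medians and the dashed line is the median of all probe sets, +0.05. Medians run from −0.23 for other phosphatases acting on MAP kinases to +0.20 for the members.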

How the data were processed

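Expression was read on 6 Affymetrix M430v2 arrays, 3 per group and 1 mouse each, so p-values measure the spread between mice. RNA was amplified with 2 rounds, per the labels' protocols, which can raise 3′ bias. The authors deposited RMA intensity values on a linear scale, made in GenePattern per the series' design text, with no version stated there. Values ran from 5.47 to 29585, array medians from 85.3 to 92.4, and the number of arrays limits precision. The log2 of each value was taken with no further normalization. The 64 control probe sets were left out.

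Each probe set was tested on its own with limma 3.58.1 in R 4.3.3 (lmFit, eBayes), with Benjamini-Hochberg adjustment over 45037 probe sets, a threshold of 0.05 and 95% intervals; the code was checked on simulated data. The platform annotation gave the symbols, and gene identifiers updated them for 34741 of 34945 probe sets with 1 symbol; 932 had several and 9160 none. Promoter sequences are from RefSeq (GRCm38.p6). Named were all member probe sets, up to 3 per pathway list with the smallest p, and the genes nearest to the most variable member. The members and lists were chosen with earlier results of these data known. Alternatives covered normalization, probe set choice, covariates, weights, thresholds and left-out arrays. Figures used matplotlib 3.10.9 in Python 3.11.15.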

Additional observations from a re-analysis of the deposited data

How the results depend on the processing

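Over 185 values of member probe sets refitted under the alternatives, limma called 0, the lowest adjusted p was 0.757, and 16 turned sign. Dusp10 1417163_at was +0.26 with array weights. The count of called members was 0 under every alternative run. Over all probe sets the count was 5 with array weights (1 higher and 4 lower) and 0 to 59 when each array was left out, the 59 (2 higher and 57 lower) without untreated replicate 3. Quantile normalization, median centring, the dim filter, 1 probe set or the mean of the probe sets per gene, and the ratio of linear group means turned no member. Dusp1 turned to +0.10 with age as a covariate and Dusp7 1452097_a_at to −0.031 with array weights; the cause was not tested.

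With each array left out in turn, differences ranged from −0.74 to +0.11 for Dusp1, +0.08 to +0.50 for Dusp2, +0.0012 to +0.69 for Dusp4, −0.15 to +0.36 for Dusp5 and −1.11 to +0.38 for Dusp6. The Dusp7 probe sets 1427416_x_at, 1452097_a_at and 1460393_a_at ranged from −0.024 to +0.54, −0.14 to +0.20 and +0.13 to +0.35. Dusp10 1417163_at ranged from +0.29 to +0.52 and 1417164_at from +0.08 to +0.67, Dusp16 1418401_a_at from −0.88 to +0.25 and 1440615_at from −0.48 to +0.21.

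Counts of pathway probe sets at an unadjusted p under 0.05 were small and moved with the settings. Atypical phosphatases went from 1 to 0 with 1 probe set or the mean of the probe sets per gene and to 2 with eBayes trend and robust or array weights. Other phosphatases went from 1 to 0 with 1 probe set or the mean per gene, to 2 with the replicate block or array weights and to 3 with age. The ERK cascade went from 3 to 1 without dim probe sets and with 1 probe set or the mean per gene, where fewer were tested, and to 2 with quantile normalization, eBayes trend and robust or array weights. The p38 and JNK list went from 1 to 4 with the replicate block or age, 5 with the file number run and 2 with array weights. Other inhibitors went from 2 to 0 without dim probe sets, with 1 probe set or the mean per gene, or with age, to 1 with the file number run and to 3 with quantile normalization or array weights. ERK targets went from 2 to 1 with median centring or without dim probe sets and to 3 with the replicate block, the file number run or eBayes trend and robust. Left-out arrays gave 0 to 1 for Dusp8 and Dusp9, 1 to 2 for atypical and for other phosphatases, 1 to 4 for the ERK cascade, 1 to 5 for p38 and JNK (5 without treated replicate 1 or 2), 0 to 3 for other inhibitors and 1 to 3 for ERK targets.

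No label says that the replicate numbers pair mice, so they were not taken as pairs. Deviations from the group means correlated at 0.45, 0.08 and 0.09 within numbers 1, 2 and 3. Between different numbers the correlations ran from −0.38 to 0.17. The array file numbers were adjacent within each replicate number. With the replicate number as a block 0 members and 0 of all probe sets were called, and Dusp2 had an adjusted p of 0.798 (95% interval −0.09 to 0.72). Array number limits all of this, and brightness limits Dusp7 1460393_a_at, Dusp10 1417163_at and Dusp16 1440615_at, whose means lay below the median of all probe sets.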
